A study of Mus musculus with 2 samples.

Results

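Of the 32662 regions of the mouse gastrocnemius that were open in both libraries, 1420 overlapped an annotated exon while lying over 1 kb from every annotated transcription start site. They made up 8.95% of the 15864 open regions at that distance from start sites (exact 95% interval 8.51 to 9.41%). DNase-seq, which reads where the enzyme DNase I cuts accessible DNA in isolated nuclei, was done on the calf muscle of 2 male B6CASTF1/J mice aged 36 days, with 1 library each. The mice, hybrids of the C57BL/6J and CAST/EiJ strains, were 1 untreated group, named replicate 1 and replicate 2 here, and no genotype, treatment or age was compared. A region was a merged stretch of the 50760 peaks of replicate 1 and the 49230 peaks of replicate 2 that held a peak of each. By the exons of all GENCODE M21 transcripts, 15 regions overlapped first exons alone, 482 inner exons, 710 last exons and 81 exons of single-exon transcripts. The other 132 overlapped exons of differing class and are called mixed. The rest of the regions over 1 kb from start sites were 7094 in introns and 7350 between genes, and 16798 regions lay within 1 kb of a start site and are called promoter regions.

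Most open chromatin away from promoters lies in introns and between genes, where enhancers and insulators are usually sought. Exons can carry such sites as well. A stretch of coding sequence may bind a transcription factor while it encodes protein, the flanks of inner exons hold the splice donor and acceptor, and last exons hold most 3' untranslated sequence. CTCF, the zinc-finger protein that anchors chromatin loops and insulators, binds at all of these places. With 1 group of 2 animals no test over samples was possible, so all values below are descriptions. Exact 95% intervals cover counting error only.

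The sequences of 8 members show what such regions contain. All are from mm10 (RefSeq, GRCm38.p6), on the strand of the host gene, 5' to 3'. In the first 6 the capitals mark a motif match overlapped by a footprint, a short protected stretch within open chromatin, in each library. Spi1 encodes PU.1, a factor of myeloid and B cells, and its member chr2:91115161-91115360 lay inside coding exon 5 with the CTCF core in capitals. Klf1 encodes a factor of red cell precursors, and its member chr8:84903081-84903300 lay inside coding exon 2 and held the CTCF core in the opposite direction. The Exoc3l4 member chr12:111426161-111426360 held a CTCF core centred 44 bases past the end of exon 9, a place that recurred among inner exons (described below, and chosen for print after its values were seen). The Numa1 member chr7:101998601-101998820 lay in exon 14 of the gene of a mitotic spindle protein and held the muscle E-box CAGCTG. The Capzb member chr4:139287561-139287760, in the gene of an actin capping protein subunit, held an AP-1 site (TGANTCA) in the intron and 5 exon bases. The Pomc member chr12:3959881-3960160 held an ETS site (CCGGAAG) in exon 3 of the gene of the corticotropin precursor.

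Spi1: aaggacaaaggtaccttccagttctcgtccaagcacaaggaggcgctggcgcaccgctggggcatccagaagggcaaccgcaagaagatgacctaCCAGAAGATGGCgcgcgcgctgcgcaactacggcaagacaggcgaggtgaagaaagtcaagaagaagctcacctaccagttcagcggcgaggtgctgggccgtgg
Klf1: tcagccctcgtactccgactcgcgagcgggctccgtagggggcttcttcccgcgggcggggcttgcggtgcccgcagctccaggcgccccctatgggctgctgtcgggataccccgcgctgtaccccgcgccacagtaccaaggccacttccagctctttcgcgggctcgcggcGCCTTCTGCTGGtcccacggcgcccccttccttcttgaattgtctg
Exoc3l4: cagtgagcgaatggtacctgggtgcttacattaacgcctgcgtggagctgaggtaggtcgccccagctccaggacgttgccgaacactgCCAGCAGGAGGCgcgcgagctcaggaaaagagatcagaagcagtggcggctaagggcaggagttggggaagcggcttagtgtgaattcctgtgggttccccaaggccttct
Numa1: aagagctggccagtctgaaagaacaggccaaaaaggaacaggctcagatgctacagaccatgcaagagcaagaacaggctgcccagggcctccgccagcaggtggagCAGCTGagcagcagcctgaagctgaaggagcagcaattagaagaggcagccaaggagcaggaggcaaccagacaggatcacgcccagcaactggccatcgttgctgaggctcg
Capzb: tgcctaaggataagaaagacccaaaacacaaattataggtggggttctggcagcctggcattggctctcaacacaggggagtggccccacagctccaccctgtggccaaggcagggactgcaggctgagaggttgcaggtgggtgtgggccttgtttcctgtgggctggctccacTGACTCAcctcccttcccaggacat
Pomc: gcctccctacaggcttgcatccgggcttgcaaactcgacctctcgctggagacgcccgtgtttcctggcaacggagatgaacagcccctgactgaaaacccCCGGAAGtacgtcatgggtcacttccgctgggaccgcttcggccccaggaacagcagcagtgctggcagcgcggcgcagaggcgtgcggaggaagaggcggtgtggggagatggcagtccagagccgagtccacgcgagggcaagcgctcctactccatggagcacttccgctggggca

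In the other 2 the capitals mark exon bases. The Sptbn4 member chr7:27361461-27361680 crossed the end of exon 33 into the intron. The Rsad1 member chr11:94544061-94544220 held the whole of exon 5 with both splice sites.

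Sptbn4: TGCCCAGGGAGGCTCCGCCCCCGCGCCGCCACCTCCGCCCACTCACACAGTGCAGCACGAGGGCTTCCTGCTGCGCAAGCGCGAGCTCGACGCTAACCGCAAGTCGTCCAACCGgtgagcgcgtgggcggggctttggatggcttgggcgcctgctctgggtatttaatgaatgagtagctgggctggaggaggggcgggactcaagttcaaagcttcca
Rsad1: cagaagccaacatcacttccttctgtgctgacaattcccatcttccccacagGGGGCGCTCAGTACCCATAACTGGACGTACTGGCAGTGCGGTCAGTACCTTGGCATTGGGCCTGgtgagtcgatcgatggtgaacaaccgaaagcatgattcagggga

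The label of the tissue was checked on promoters before the regions were described. A promoter peak was one within 500 bp of a start site, a narrower limit than the 1 kb of promoter regions. Promoter peaks in both libraries were present at 7 of 8 muscle fibre markers (Mb had none) and at 3 of 3 fibroblast markers. They were present at 1 of 3 endothelial markers, 0 of 6 macrophage and lymphocyte markers, 0 of 3 red cell markers and 0 of 3 markers of other tissues. Nuclei of all cell types of the tissue were pooled, so a region open in few cells and one weakly open in many cannot be told apart. Over 50% of the 31-base words of 10 members occurred more than once in the assembled autosomes, X and Y. The mitochondrial genome and unplaced sequence were not searched, so copies there would be missed. Of these, members of Gm10722 (15.5 in replicate 1 and 41.4 in replicate 2) and Gm11168 (2.58 and 16.0) lay wholly in repeat-masked sequence. The part of reads from other copies in their values was not tested.

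Exon sequence held more open regions per base than introns or intergenic sequence. The middles of 1128 regions (7.11%, 6.72 to 7.52%) fell on exon bases, which made up 3.39% of the bases over 1 kb from start sites. This was 13.4 middles per Mb of exon, against 7.25 per Mb of intron, 5.32 per Mb of intergenic sequence and 6.38 per Mb over all these bases. Inner exons (13.9 per Mb, 278 middles) and last exons (13.6 per Mb, 683 middles) had nearly the same density, and exons of single-exon transcripts had less (9.36 per Mb, 82 middles). Members lay nearer to start sites than the other regions, at a median of 4329 bp against 9262 bp in introns and 12822 bp between genes. Between 1 and 2 kb from a start site lay 24.3% of members, against 11.1% of intronic and 6.35% of intergenic regions. The members nearest the limit, in 5830428M24Rik and Gm19459, were 1001 bp away. How far the density follows from this distance, or from how uniquely reads align to exons, was not tested.

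**Figure D1:**
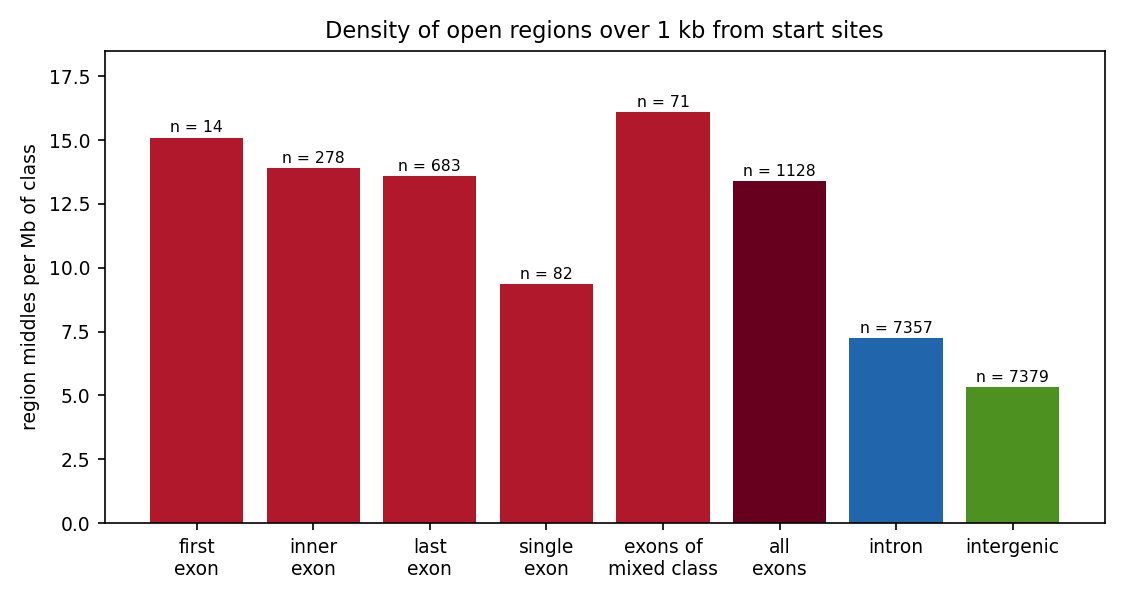
Number of region middles per Mb of sequence over 1 kb from start sites (vertical axis) for 5 classes of exon, all exons, introns and intergenic sequence, with the number of middles above each bar. All exons stood at 13.4 per Mb, introns at 7.25 and intergenic sequence at 5.32.

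Coding and untranslated bases were taken from protein-coding transcripts only. By these bases, 609 members (42.9%) held coding sequence and no untranslated base, and 126 (8.87%) coding and untranslated sequence. Another 314 (22.1%) held 3' untranslated sequence alone and 20 (1.41%) 5' untranslated sequence alone. The other 351 (24.7%) overlapped exons only of transcripts not annotated as protein-coding, called non-coding here. These include retained-intron transcripts of protein-coding genes, such as those of Mpp6 and Ttc13. Members counted as coding can cover non-coding exon bases too, as in Gas2l1 with 6 coding and 254 non-coding bases. A protein-coding gene was overlapped by 1172 members (82.5%), a lincRNA gene by 138 and an antisense gene by 51. Of all member bases 30.8% were coding, 23.5% in 3' untranslated sequence, 21.6% in non-coding exons and 22.6% outside exons.

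The fit of regions to exons differed between inner and last exons, and so did the length of the exons. Inner members were a median of 202 bp wide and last-exon members 212 bp. Of the 482 inner members 83.0% were coding, 61.4% crossed an edge of the exon, 21.6% spanned a whole exon and 17.0% lay inside one. Of the 710 last-exon members 82.1% lay inside the exon, 41.1% covered 3' untranslated sequence alone and 29.3% non-coding transcripts. The exons overlapped by inner members had a median length of 155 bp, against 124 bp over all 149759 inner exons over 1 kb from start sites, of which 0.417% held a member. For last exons these values were 1774 bp for members and 403 bp over 73705 exons, of which 1.48% held a member. The member lengths took 1 exon per region, of a protein-coding transcript where there was one, and then by largest overlap. They are thus not the same measure as the medians over all exons. How far the fit, or the share of exons that held a member, follows from exon length was not tested. The middle of a last-exon member lay a median of 791 bases before the exon's 3' end, and 51 of 710 (7.18%) held that end. The first-exon members sat in exons of 1143 to 9539 bp, as the distance rule requires.

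The smallest overlap was 1 bp, in Slc17a5, the gene of a lysosomal sialic acid transporter, and the largest 1071 bp, in the 3' untranslated exon of Ldhd. The overlap rule therefore admits regions centred outside exons. The middle of the region lay on an exon in 79.4% of members, in 92.5% of the last-exon class and in 55.6% of the inner class.

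Among regions open in both libraries, the peak values of members were somewhat higher than those of intronic and intergenic regions and well below those of promoter regions. The value is the authors' signal, on a scale that is not stated, so it was ranked as a percentile among all peaks of its own library. The median percentile of members was 56.9 in replicate 1 and 57.7 in replicate 2, against 53.3 and 51.3 for the other regions over 1 kb from start sites and 78.8 and 78.4 for promoter regions. The middle 50% of members ranged over 38.6 to 71.4 in replicate 1 and 41.4 to 72.7 in replicate 2, far wider than this difference. The difference, 4.99 points as the mean of both libraries, turned to -3.23 when the regions of replicate 2 were taken alone, and to -0.283 in replicate 1 with peaks at or above the median of their list. In original units the median was 2.02 and 1.56 for members, 1.86 and 1.34 for introns, 1.87 and 1.39 between genes and 3.81 and 2.87 for promoter regions. Peaks at or above the 90th percentile of both lists were found in 34 members (2.39%), against 1.44% of the other regions over 1 kb from start sites and 11.7% of all replicated regions.

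The inner class stood at medians of 54.9 and 55.9 and the last class at 57.4 and 58.4. Single-exon (61.9 and 58.1) and mixed members (59.1 and 60.9) were close to these. The 15 first-exon members stood at 27.4 in replicate 1 and 56.5 in replicate 2, and so differed between the libraries more than any other class did. GC content was 56.0% in members, against 54.0% in other regions over 1 kb from start sites and 65.0% in promoter regions. CpG dinucleotides numbered 2.50 per 100 bp in members, 2.00 in those other regions and 8.0 in promoter regions.

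**Figure D2:**
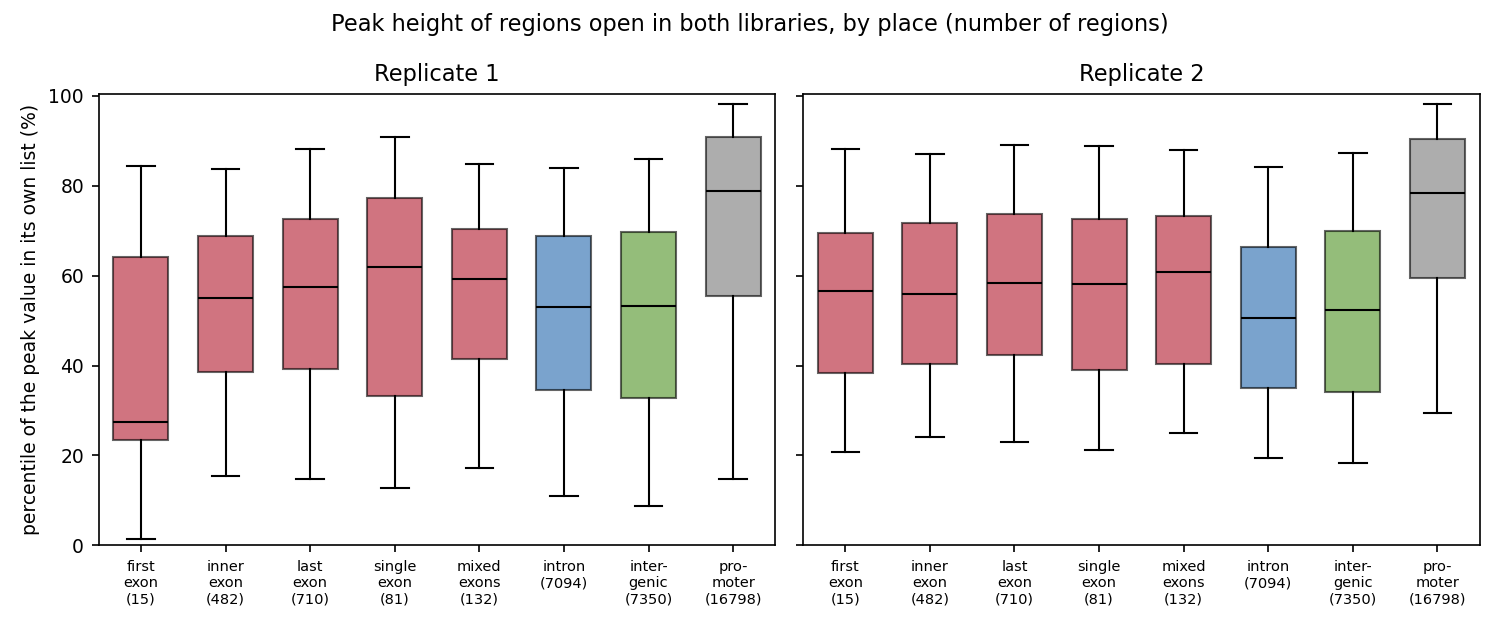
Percentile of the highest peak of a region within the peak list of its library (vertical axis, %) for the 5 exon classes (red), introns, intergenic regions and promoter regions, in both replicates, with the number of regions below each box. Boxes give the quartiles and median, whiskers the 5th and 95th percentiles. Members of the inner class had medians of 54.9 and 55.9, promoter regions 78.8 and 78.4.

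The highest members lay in 3' untranslated exons. The last exon of Cers5, which encodes a ceramide synthase, held a region at chr15:99735661-99736080 with a value of 35.2 in replicate 1 and 39.3 in replicate 2, with only a few regions of the library above it. The last exon of Lars2, the gene of the mitochondrial leucyl-tRNA synthetase, had 26.8 and 52.3, but 60.5% of its words were multi-copy. The last exon of Ubqln1, the gene of a shuttle protein of the proteasome, had 18.9 and 15.0 at chr13:58177621-58177840 with a GC box under footprints of both libraries. These values exceeded the promoter median of 3.81 and 2.87 several-fold. Next in the last class came the lincRNA genes Gm14486 (15.9 and 8.67) and Gm49427 (15.0 and 7.44).

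Among inner exons the Angptl6 member was highest. This gene of a secreted angiopoietin-like protein held chr9:20878141-20878520 inside coding exon 2, with 16.3 in replicate 1 and 9.33 in replicate 2 and 9 and 7 footprints. The Sptbn4 member, in exon 33 of the gene of beta-IV spectrin, a scaffold of axon initial segments and nodes, had 13.6 and 8.04. Next came the non-coding Gm11946 (9.37 and 6.54). The Zfp503 member, in the 5' untranslated part of exon 2 of a zinc-finger repressor gene, had 11.8 and 5.44. The Plec member, which crossed exon 12 of the gene of plectin, a linker of intermediate filaments, had 9.54 and 5.29. The Angptl6 member lay 1207 bp and the Zfp503 member 1501 bp from the nearest start site, and the Sptbn4 member 4042 bp. In each of these 5 regions replicate 1 had the higher value, as in 74.1% of all members and 78.0% of other regions over 1 kb from start sites.

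In the mixed class the member of Gm10722 (15.5 and 41.4) led, then a region over non-coding exons of C87436 and of the antisense gene A430078I02Rik (16.8 and 9.0), Prdm2 (15.0 and 8.27), Gas2l1 (8.99 and 6.57) and Gipr (5.76 and 4.33). Prdm2 encodes a histone methyltransferase with zinc fingers, Gas2l1 a cytoskeletal linker and Gipr the receptor of an incretin hormone. In the single-exon class Gm45606 (8.31 and 8.42) led, followed by Sf3b5 (7.40 and 5.05), Ier2 (8.79 and 4.55), Mpp6 (9.33 and 4.38) and Rimbp3 (4.92 and 3.92). Sf3b5 encodes a subunit of the splicing factor SF3B, and Ier2 is an immediate early gene. The first-exon class was led by Zfp91 (8.80 and 4.92), where 17 bases of the region were exonic, and Myo15b (4.97 and 4.36), a myosin-like gene whose region lay inside a coding exon. Below these came Tmbim1 (2.72 and 1.93), AC122252.3 (2.47 and 2.46) and Ttc13 (2.31 and 1.83).

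Genes rarely held more than 1 member. Of 1356 genes, 1262 held 1, 80 held 2, 13 held 3 and 1 held 5. The gene with 5 was Syne1, which encodes nesprin-1, the giant nuclear envelope protein that anchors nuclei in muscle fibres. Its 5 members lay in inner exons 43, 47, 55, 77 and 125 of 146, with values of 0.723 to 2.31 in replicate 2 and 1.12 to 3.24 in replicate 1. The exon 55 member was the highest in both libraries (3.24 and 2.31), and the exon 125 member came next in replicate 1 (2.22) and was lowest in replicate 2 (0.723). Sptbn4, Zfp503, Synpo and Ltbp4 followed with 3 each. Exon sequence over 1 kb from start sites measured 35.2 kb in Syne1, against 7.23, 3.64, 6.90 and 4.23 kb in these genes.

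Ltbp4 encodes a matrix protein that binds latent TGF-beta and modifies muscular dystrophy in mice. Its members overlapped exons 7, 9 and 15 of 33, with 4.83, 2.68 and 4.73 in replicate 1 and 4.57, 3.04 and 2.19 in replicate 2. The 3 Zfp503 members had 11.8, 8.16 and 4.61 in replicate 1 and 5.44, 4.05 and 3.15 in replicate 2. The Sptbn4 members differed most among themselves, with 13.6, 1.17 and 1.10 in replicate 1 and 8.04, 1.41 and 0.828 in replicate 2. The Synpo members, in the gene of an actin-associated protein, had 7.30, 2.95 and 2.40 in replicate 1 and 4.51, 2.31 and 2.43 in replicate 2.

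Of 21938 protein-coding genes, 1101 (5.02%) held a member in an exon. Of the listed genes of excitation-contraction coupling and the muscle membrane 6 of 34 did (Ank1, Atp2a1, Bin1, Dysf, Jph1 and Stac3). Dysf, the gene of the membrane repair protein dysferlin, had a member that spanned exon 34 with 4.12 in replicate 1 and 2.72 in replicate 2. Atp2a1, the gene of the fast-fibre calcium pump, had one with 2.18 and 1.36 that touched exon 5 by 2 bp. Bin1, whose protein shapes T-tubules, had one with 1.48 and 2.40 that held a CTCF core under footprints of both libraries.

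Of the contractile genes 4 of 41 held a member, among them Myom3, Nrap and Speg. Nrap, whose protein takes part in myofibril assembly, had 2.28 in replicate 1 and 1.98 in replicate 2 in exon 29. Speg, the gene of a muscle kinase, had 1.55 and 0.979. Nrap lay above the members' medians of 2.02 and 1.56 in both libraries, and Speg below them. Of the oxidative genes 1 of 34 held a member (Slc25a4, the muscle ADP/ATP carrier, 1.18 and 1.10).

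Of the regulators of muscle identity 7 of 42 held a member, among them Hdac4, Nfatc2, Nfic, Sox6 and Vgll2. Nfatc2, a calcium-responsive factor, had 4.93 in replicate 1 and 3.03 in replicate 2 in its 3' untranslated exon. Vgll2, a TEAD cofactor of muscle, had 1.27 and 0.933 in its last coding exon. Of the extracellular matrix genes 8 of 43 held a member (Col12a1, Col4a2, Col6a3, Lama5, Ltbp1, Ltbp4, Thbs4 and Tnxb). Thbs4, the gene of a thrombospondin of tendon and muscle matrix, had 5.03 and 3.29, with 12 exon bases. The circadian and stress genes gave 3 of 45 (Arntl, Ier2 and Jun). The 3' untranslated member of Jun, an AP-1 subunit, had 4.82 and 2.84.

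Among genes of other cells, 4 of 30 endothelial and smooth muscle genes held a member (Flt1, Kdr, Notch3 and Vwf), with 3.85 and 4.53 in exon 24 of Notch3 and 2.86 and 1.79 in the 3' untranslated exon of Kdr. Of the blood genes 2 of 24 did, Spi1 (7.69 and 7.56) and Klf1 (5.71 and 5.13). Both held the CTCF core printed above, under footprints of both libraries, as did 278 of all 1420 members. No promoter of the red cell and leukocyte markers had a peak in both libraries. In which cells the Spi1 and Klf1 members were open was not tested. Of the neuron, liver and skin genes 3 of 23 did, namely Rbfox3 (3.53 and 2.86), Apoa1 (2.01 and 1.64) and Lor (1.65 and 1.23). The Apoa1 member held a CTCF core under footprints, and the Rbfox3 and Lor members did not. Of 30 splicing factors 2 held a member (Celf1, 1.13 and 0.940, and Rbfox2, 2.52 and 1.22), of 48 homeobox genes 1 (Zfhx4, 0.740 and 0.881) and of 20 housekeeping genes 0.

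Lists differ in exon length, so members were also counted per Mb of exon over 1 kb from start sites. All protein-coding genes had 16.9 per Mb. The lists of matrix (43.2), excitation-contraction (41.2), blood (39.4), endothelial (37.3), identity (35.7), neuron, liver and skin (32.2) and circadian and stress genes (29.0) lay above this. The lists of splicing factors (14.6), contractile (13.0), oxidative (11), homeobox (7.92) and housekeeping genes (0) lay below it. Each list rests on 12 members or fewer, so these densities are coarse.

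Host genes more often had an open promoter than other genes. Of the 1101 protein-coding genes holding a member, 767 had a promoter peak in both libraries (69.7%, 66.9 to 72.4%), against 60.9% of the 18460 with an exon over 1 kb from start sites and 55.8% of all protein-coding genes. The inner (68.1%) and last classes (68.1%) were alike in this, and the mixed class was at 78.1%.

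Nearly all members held footprints. A footprint of each library was present in 1379 members (97.1%, 96.1 to 97.9%), against 95.6% of other regions over 1 kb from start sites, 92.0% of promoter regions and 93.8% of all replicated regions. In windows of 150 bp the share was 91.5% both in members and in the other regions over 1 kb from start sites. Footprints of the 2 libraries that shared at least 50% of their bases were found in 74.9% of members (72.6 to 77.2%), against 70.5% of those other regions. This share followed peak value. It was 41.9% in members under the 20th percentile of the lower-ranked library and 97.6% in those at or above the 80th, against 38.2% and 97.0% in the other regions. Within members that held both kinds of base, footprints covered 13.9% of exon and 14.6% of non-exon bases in replicate 1, and 19.7% and 20.8% in replicate 2.

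About the exons of inner members, footprints were unevenly placed. From 20 to 39 bases past the last base of the exon they covered 24.1% of the bases in replicate 1 and 31.3% in replicate 2, and from 40 to 59 bases 24.3% and 31.9%. In the 20 bases before them the cover was 11.6% and 18.2%, in the 20 bases after them 15.0% and 19.9%, and in the 20 exon bases that precede the last one 10.4% and 15.4%. Both libraries had this rise on the intron side of the donor. On the acceptor side the cover was 18.8% and 27.1% from 60 to 41 bases before the exon and 11.6% and 18.4% in the last 20 intron bases.

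CTCF cores were counted about the same splice sites where they were overlapped by footprints of both libraries, so their places are not independent of the footprint cover. Of the 104 inner members with a CTCF core under footprints of both libraries, 36 had it inside the exon, 65 outside and 3 across an edge. The middle of the match lay 40 to 59 bases past the exon in 19 members, against 8 in the 20 bases before that window and 4 in the 20 bases after it. The other windows within 200 bases of the exon end had at most 8. The Exoc3l4 sequence printed above is of this kind. In last-exon members the core lay inside the exon in 125 of 137. The footprint caller's treatment of sequence-dependent cleavage at splice sites is not stated, and its part in the profile was not tested.

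**Figure D3:**
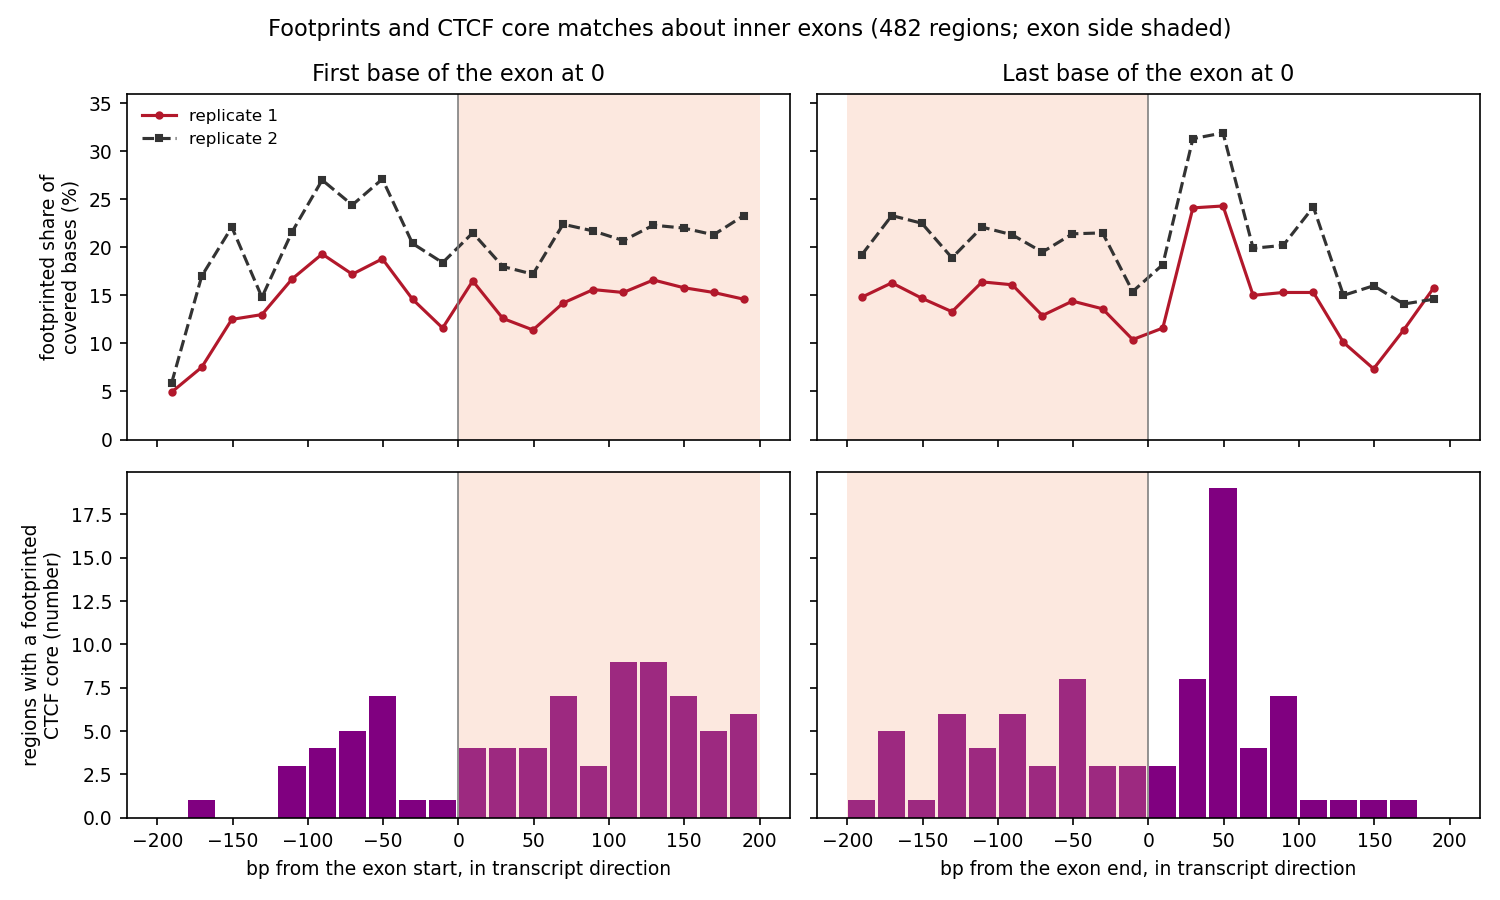
Upper panels give the footprinted share of bases covered by the 482 inner members (vertical axis, %) in bins of 20 bp about the start (left) and end (right) of the exon, with replicate 1 as a solid and replicate 2 as a dashed line. Lower panels give the number of members whose footprinted CTCF core is centred in the bin. Footprint cover is highest from 20 to 59 bp past the exon end, and the core count from 40 to 59 bp past it (19 members).

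The strand of the core relative to the gene was read where the overlapping genes lay on 1 strand. In inner members the core ran against the gene in 65 of 101 (64.4%, 54.2 to 73.6%), and in last-exon members in 61 of 118 (51.7%, 42.3 to 61.0%). In introns it did so in 598 of 1075 regions (55.6%, 52.6 to 58.6%). The interval of inner members overlaps that of introns.

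Over whole regions, matches to 20 motifs were counted on both strands in 200 bp about the middle. The CTCF core was present in 291 members (20.5%, 18.4 to 22.7%), against 19.5% of other regions over 1 kb from start sites, 4.86% of promoter regions and 12.0% of all replicated regions. It was present in 12.7% of exon regions when those of replicate 2 were taken alone and in 16.3% with those of replicate 1. The muscle E-box CAGCTG, bound by MYOD and related factors, was present in 26.5%, against 26.2% of those other regions. In regions open in both libraries, the shares of the other regions lay within the members' intervals for both motifs.

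Of 6 motifs that were more frequent in promoter regions than in the other regions over 1 kb from start sites, 3 were more frequent in members too. The GC box of SP and KLF factors (GGGCGG) was present in 17.5% (15.5 to 19.5%) of members against 12.6% of those regions, the ETS site in 3.80% against 1.94%, and the NRF1 site (GCGCNTGCG) in 2.32% against 0.969%. All 3 were still far below promoter regions, which had 55.2%, 11.7% and 9.70%. The other 3 were not: the NFY box was present in 19.6% of members against 21.6% (26.6% of promoter regions), the YY1 site in 1.13% against 1.13% (3.01%) and the clock E-box CACGTG in 4.15% against 4.32% (7.07%). AP-1 (7.82% against 10.5%) and the glucocorticoid receptor site (ACANNNTGT, 4.44% against 6.16%) were less frequent in members. The CArG box of SRF was present in 0.423% of members against 0.990%, and MEF2 in 2.32% against 2.69%. TEAD (11.1% against 12.4%) and RUNX (3.45% against 4.09%) had shares of the other regions within the members' intervals, as had MEF2.

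GC content was higher in members, so the shares were also taken within 3 ranges of GC content, with limits at 54% and 59% set by the members. The GC box was then present in 8.08%, 10.7% and 35.4% of members, against 5.95%, 12.4% and 33.6% of the other regions over 1 kb from start sites. The ETS site was present in 2.83%, 3.93% and 4.76% of members, against 1.21%, 2.24% and 3.60%. The NRF1 site was present in 0%, 1.24% and 6.12% of members, against 0.379%, 0.968% and 2.78%. The share was thus higher in members in each range for the ETS site (14, 19 and 21 members with a match). For the NRF1 site it was higher in the middle and highest ranges and not in the lowest, on 0 of 495, 6 of 484 and 27 of 441 members. No intervals were taken within the ranges, and the small NRF1 difference in the middle range rests on 6 members. For the GC box the share of members was not higher in the middle range. The CTCF core was present in 25.7%, 21.1% and 14.1% of members, against 25.1%, 15.8% and 9.49%, and so was the more frequent in members where GC content was higher. AP-1 was alike in the lowest range (10.9% against 10.8%) and lower in members in the others (6.82% against 10.8%, and 5.44% against 8.91%).

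**Figure D4:**
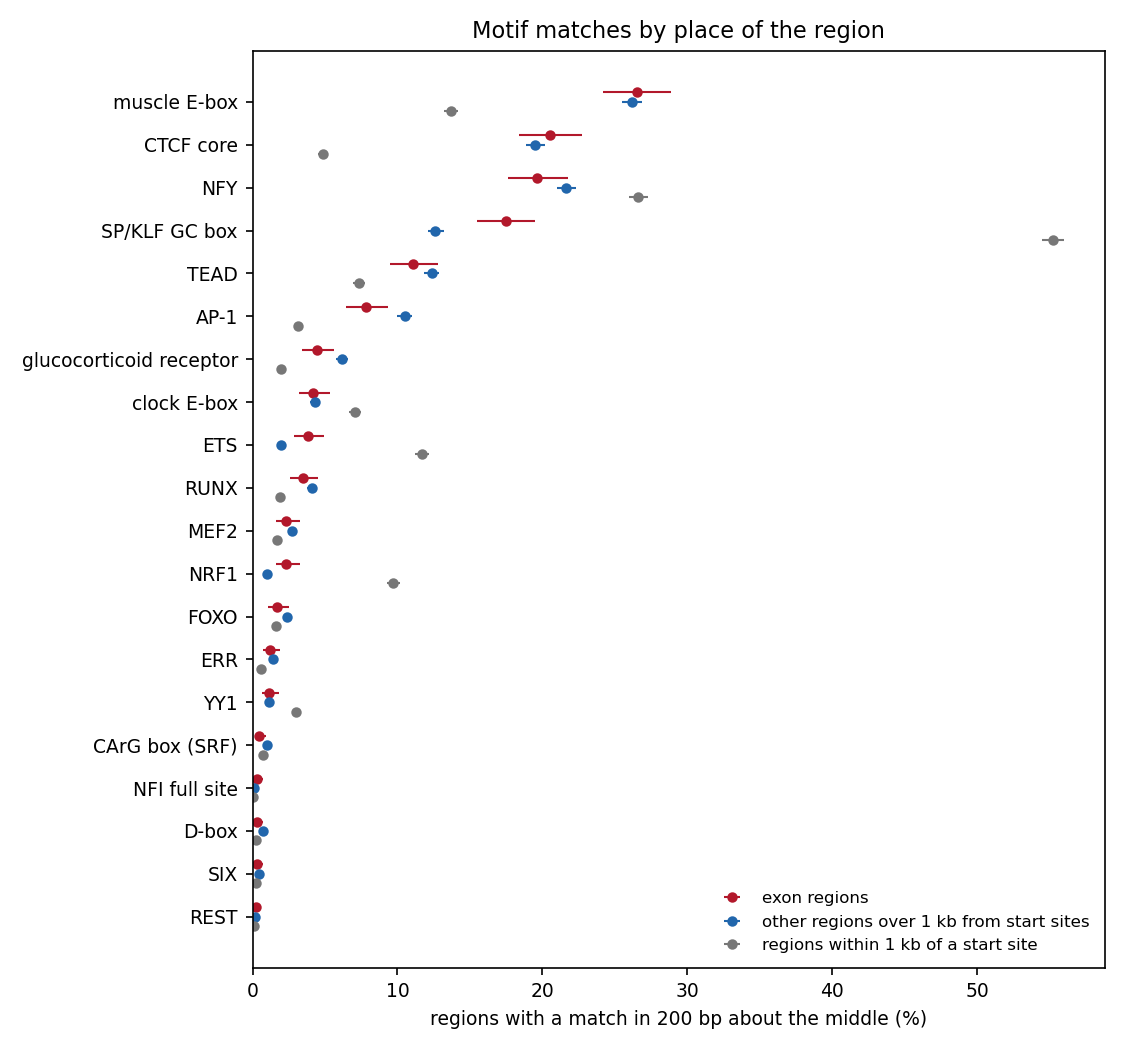
Share of regions with a motif match in 200 bp about the middle (horizontal axis, %) for 20 motifs, in members (red), other regions over 1 kb from start sites (blue) and promoter regions (grey), with exact 95% intervals as bars. The CTCF core and the muscle E-box stood at nearly the same share in red and blue, and the GC box was higher in members (17.5%) than in blue (12.6%) and lower than in promoter regions (55.2%).

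Matches overlapped by footprints of both libraries were fewer. The CTCF core had 278 members with such a match, the GC box 110, the muscle E-box 96, the NFY box 48, the TEAD site 28 and the NRF1 site 19. The MEF2 site had 6. Of the 96 with an E-box, 80 had it inside exon bases. The highest member with each motif under footprints included 4930578M01Rik for CTCF (10.3 in replicate 1 and 6.87 in replicate 2), Trim14 for the clock E-box (11.2 and 4.86), Ece1 for TEAD (5.54 and 3.63), Capzb for AP-1 (4.40 and 5.46), Clip2 for RUNX (4.06 and 4.46) and Slc12a4 for the NFI full site (3.17 and 2.69).

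Exon regions recurred between the animals as often as intronic ones. Of 3616 merged exon regions open in either library over 1 kb from start sites, 1420 were open in both (39.3%, 37.7 to 40.9%), against 39.3% in introns, 44.5% between genes and 65.4% for promoter regions. Recurrence rose with peak value. In replicate 1 it was 30.6% of 405 exon peaks in the lowest 20% of the list and 98.3% of 181 in the highest, against 24.3% and 98.9% in introns.

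The low end of replicate 2 differed. There 43 of 1034 exon peaks in the lowest 20% of the list recurred (4.16%), against 11.6% in introns and 16.7% between genes. In the next 20% the shares were 49.4% for exons, 65.7% for introns and 68.7% between genes. Exon regions were 14.3% of the 9722 regions away from start sites that were open in replicate 2 alone, 6.40% of the 12585 open in replicate 1 alone and 8.95% of those open in both. Those of replicate 2 alone had a median value of 0.421 and a median percentile of 12.1. In replicate 1, the authors' q-values reached 0.05 or less within 21.4% of them, against 31.2% in introns. Of the 806 exon regions of replicate 1 alone 66.0% did so in replicate 2.

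The exon regions of replicate 2 alone were clustered. Another replicate 2 region lay within 1 kb of 72.6% of them, against 61.2% of intronic and 59.7% of intergenic regions of replicate 2 alone, 14.5% for exon regions of replicate 1 alone (by replicate 1 regions) and 21.1% for members. Such clustering was thus shared by all regions of replicate 2 alone. In replicate 2, 159 genes held 3 or more, led by Tns1 with 15, Col27a1 with 13 and Ttn, the gene of titin, with 13 (values 0.223 to 0.427). In replicate 1, 5 genes held 3 and none more. The members leave these weak clustered peaks out, since they required a peak of each animal.

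**Figure D5:**
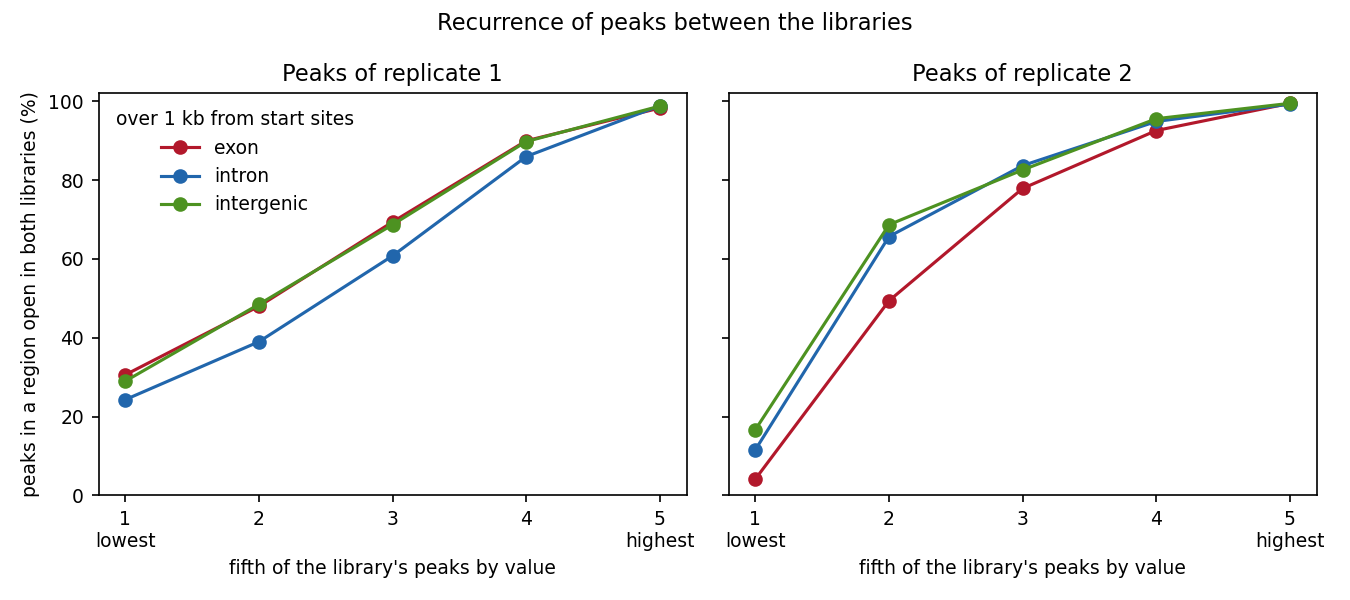
Share of peaks in a region open in both libraries (vertical axis, %), for exons, introns and intergenic sequence over 1 kb from start sites. The horizontal axis gives 5 equal ranges of the percentile of a peak's value in its library, lowest to highest. In replicate 1 exons lay at or above introns below the top range, and in the lowest range of replicate 2 they stood at 4.16%, against 11.6% in introns.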

How the data were processed

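Per the labels, DNase-seq was done on gastrocnemius nuclei of 2 mice and the files use mm10; the sources used here name no aligner, peak caller or footprint caller, and give neither the read depth nor how reads of the CAST alleles were aligned. The authors deposited a pair of peak lists per library, each peak with a signal value on an unstated scale, a table of q-values per run of bases, and footprints whose score is the same on every line, so footprints were used by position. Peaks were called per library.

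The shorter lists were merged where peaks shared a base. The deposited q-values reached 0.001 or less within each of the 1420 members in each library. Distances were taken to 132629 start sites and exons from all transcripts of GENCODE release M21. A region with exons of 1 class took it, and one with several was mixed. A peak value was ranked within its library, and a region by the lower of both percentiles. Motifs were consensus patterns searched on both strands. The CTCF core, MEF2, CArG, NFI and REST patterns are given by name. Genes were named by rule: the 5 highest members of each class, up to 3 of each gene list, the 5 genes with most members, the highest member with each motif under footprints, and the extremes of distance and overlap. Some genes that the rule names, and the list of glycolysis genes, are not reported here. The members, the 13 gene lists (442 entries, 442 matched) and the rules were chosen with earlier results of these data known. The placing of regions was tested on 445 simulated regions, of which 445 were recovered. They were of first, inner, last and single exons, introns, intergenic sequence and promoters, or were open in 1 library. Each simulated gene had 1 transcript, and the mixed class was not simulated. Python 3.11.15 was used with NumPy 2.4.6, SciPy 1.17.1, pysam 0.24.0 and Matplotlib 3.10.9. Coordinates are 1-based.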

Additional observations from a re-analysis of the deposited data

How the results depend on the processing

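No paired analysis was possible because the 2 libraries form 1 group. Depth in reads is unknown, so a region missing from a library is missing at the authors' threshold. The number of members, 1420, was 2724 with the longer peak lists, 702 with peaks at or above the median of their list, and 2191 to 2807 when either library was left out. The share of members was 8.12% with at least 50 bp of exon, 7.11% with the middle in an exon, 6.96% with at least 50% of the region exonic, 10.4% over 500 bp and 7.54% over 2 kb from start sites, 8.23% with basic transcripts, 6.74% with protein-coding transcripts, 10.4% with the stronger peaks, and 7.59 to 10.9% leaving out a library.

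By class, the longer lists gave 44 first, 938 inner, 1316 last, 174 single-exon and 252 mixed members, and the stronger peaks 6, 226, 357, 41 and 72. Leaving out a library gave 36 to 55 first, 652 to 1001 inner, 1166 to 1296 last, 158 to 174 single-exon and 179 to 281 mixed members. With start sites at over 500 bp there were 75 first and 158 single-exon members, and at over 2 kb 4 first, 27 single-exon and 83 mixed. Protein-coding transcripts left 8 first, 22 single-exon and 46 mixed members, and basic transcripts 33 mixed. The middle in an exon left 278 inner and 71 mixed, and 50% exonic 242 inner.

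The mean over libraries of the members' median percentile, 57.3, was 61.8 with the longer lists, 56.2 over 2 kb from start sites, 43.4 with the stronger peaks, 59.6 with 50% reciprocal overlap, 55.7 as a mean, and 34.7 to 45.2 leaving out a library. Members lay 4.99 points above other regions over 1 kb from start sites, 2.06 with the stronger peaks (-0.283 in replicate 1 and 4.40 in replicate 2), and -3.23 to 6.03 leaving out a library. With replicate 2 alone the direction turned (-3.23), and the cause was not tested. The share with footprints was 97.1%, 74.9% with 50% of the bases shared, 91.5% in 150 bp windows and 79.9 to 93.5% leaving out a library. The CTCF core share of 20.5% was 12.7 to 16.3% leaving out a library. Recurrence of 39.3% was 56.1% with the stronger peaks. The genes of all lists with a member, 42, were 56 to 77 leaving out a library. Leaving out multi-copy regions, an alternative chosen after seeing the data, moved none of the results it was run on.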
